A study of Mus musculus with 15 samples.

Results

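The genes of the presynaptic release machinery were followed in migrating cortical interneurons of the medial ganglionic eminence (MGE). The set was a list of 44 genes, of 28391 genes present in either deposited table. It was chosen by name, with earlier results of these data known. Of the 44, 42 had a row in the *Lhx6* table and 43 had one in that of *Mtg8*. *Cplx3* was listed in neither, and *Syt10* was missing from the *Lhx6* table. The members covered 6 roles, namely calcium sensors, other synaptotagmins, fusion proteins, complexins, the active zone and proteins of the vesicle itself.

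RNA sequencing was carried out on YFP-positive cells sorted from the cortex of C57BL6/CBA mouse embryos at E14.5, with 1 embryo per library. All embryos carried Nkx2-1-Cre, which is active in the MGE lineage, and the R26R-YFP reporter that Cre switches on, so the sorted cells had Nkx2-1-Cre activity at some time in their history. The 4 *Lhx6* controls were Lhx6+/+ and the 5 *Lhx6* mutants Lhx6-/-, whereas the 3 *Mtg8* controls were Mtg8+/+ and the 3 libraries labelled *Mtg8* mutant are described as Mtg8-/-. Both mutations were germline losses of function, present in every cell of the embryo, and the *Mtg8* allele carries a LacZ insertion. The question put to these genes was whether the release machinery was switched on earlier or later in the mutants.

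At a presynaptic terminal, vesicles filled with transmitter dock at the active zone, a protein scaffold built by Rims, Bassoon, Piccolo, ELKS and liprin-alpha proteins. Munc13 proteins (*Unc13* genes) prime the vesicles, SNARE proteins on vesicle and membrane zip together, complexins hold the assembled complex, and synaptotagmins trigger fusion when calcium enters. Interneurons at this age are still migrating and have made few synapses, and many of these genes are already transcribed in young neurons before any terminal exists.

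Library depth ranged from 12218422 to 22053032 assigned reads, with group medians of 16643582 in *Lhx6* controls, 16106500 in *Lhx6* mutants, 17587732 in *Mtg8* controls and 19576380 in libraries labelled *Mtg8* mutant. *Lhx6* itself had a normalised read count of 7247 ± 1093 (SD, n = 4) in its controls and 331 ± 99.7 (SD, n = 5) in its mutants. *Runx1t1*, the gene that encodes MTG8, was not lower in the libraries labelled *Mtg8* mutant (12845 ± 944, n = 3) than in their controls (8891 ± 1219, n = 3), so its count did not check those labels. *Sst*, which encodes the neuropeptide somatostatin, was at 34.0%, 48.2% and 36.6% of its control mean in labelled mutants 2, 3 and 4, and the controls were at 86.4% to 110.8% (log2 fold change -1.34 ± 0.19, limma adjusted p = 0.0713). The library names fall into 2 styles, with or without what reads as a date. Names of all 4 *Lhx6* controls and of *Lhx6* mutant 6 are undated, whereas those of *Lhx6* mutants 1, 2, 3 and 5 are dated. In the *Mtg8* table, controls 1 and 2 and the labelled mutant 2 are dated, and the other 3 libraries are undated. What the style stands for is not given in the sources used here, and in the *Lhx6* comparison only mutant 6 shares a style with the controls. Because sorted populations were sequenced in bulk, fewer cells expressing a gene and less RNA per cell cannot be told apart in any value below.

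In control interneurons the release machinery was far from uniform. Levels are given here as normalised reads per kb of exon, which allows genes of different length to be ranked. *Rab3a*, a small GTPase on the vesicle, led both rankings, at 1931 ± 40.7 (SD, n = 4) for the *Lhx6* control group and 2079 ± 36.4 (SD, n = 3) for the *Mtg8* one. *Syt11*, a synaptotagmin that does not act as a calcium sensor, ranked next with 1063 ± 120.3 and 1724 ± 80.5. Its libraries did not overlap with those of *Rab3a* above it or of *Vamp2*, the vesicle SNARE, below it in either control group. *Vamp2* stood at 540.3 ± 84.0 and 844 ± 65.8. In the *Lhx6* controls the ranges of *Vamp2*, the membrane SNARE *Snap25* (500.0 ± 24.1) and the fast calcium sensor *Syt1* (457 ± 52.8) overlapped from each gene to the next, so their order was not resolved. The scaffold and priming genes lay lower. The highest of them, *Ppfia2* (liprin-alpha-2) and *Erc2* (an ELKS protein), reached 94.4 ± 4.37 and 93.5 ± 3.17 in *Lhx6* controls, and *Pclo*, which encodes Piccolo, stood at 21.3 ± 1.80. At the bottom were *Unc13c*, *Sv2c* and *Syt2*, the calcium sensor of fast mature synapses, with 0.594 ± 0.825, 0.593 ± 0.302 and 0.424 ± 0.405 (SD, n = 4) on this scale in *Lhx6* controls, and their libraries overlapped from each gene to the next. In *Mtg8* controls the lowest 3 were *Unc13c*, *Syt10* and *Sv2c*. *Syt10* was represented by a single read in 1 control and 1 labelled mutant and by 0 reads in the other 4 libraries, and 3 reads, the limit that a count of 0 allows, were worth between 2.76 and 3.398 normalised counts in those 4. Reads carried no molecular identifiers, so this limit covers counting error only.

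**Figure D1:**
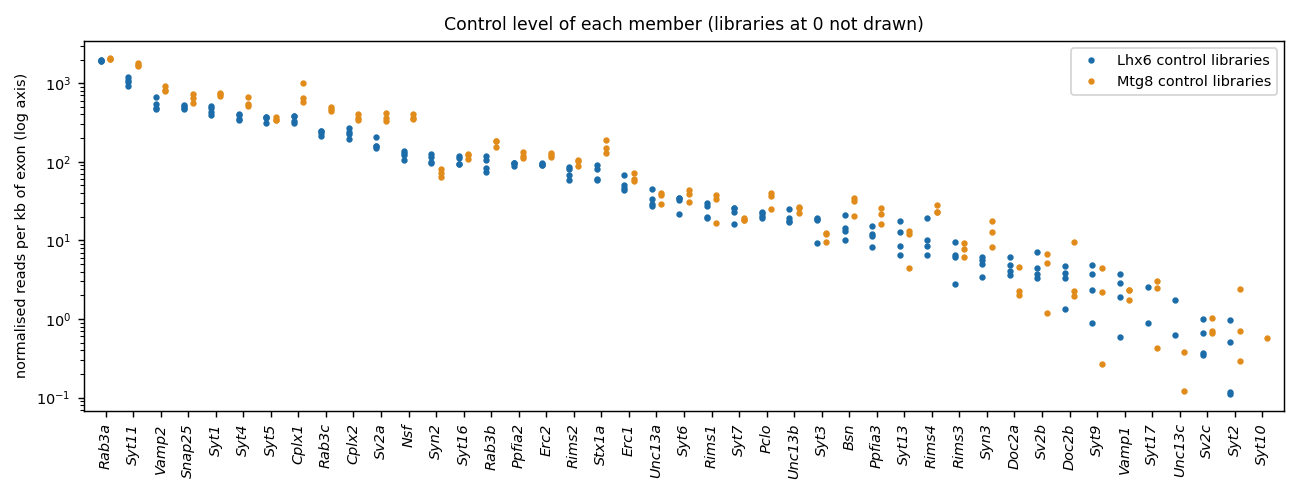
Control level of each member, as normalised reads per kb of exon on a log axis, with 1 point per control library of the *Lhx6* table (blue, n = 4) or the *Mtg8* table (orange, n = 3). *Rab3a* and *Syt11* stood apart at the top, and the levels ran down from 1931 for *Rab3a* to 0.424 for *Syt2* in the *Lhx6* controls. The tables were normalised separately, so levels of the 2 colours should be compared only within a table.

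In *Lhx6* mutants 4 members were called higher and none lower. These calls were lost with the replicate number as a block and with name style as a covariate. Few libraries inform the contrast in either fit, as given below. *Rims1*, *Cplx2*, *Syn2* and *Syt4* were higher in every mutant library than in any control, by 2.54-fold, 2.11-fold, 1.85-fold and 1.71-fold. Of 42 members listed, 39 passed the filter of a mean normalised count of at least 10, and the 4 genes made up 10.3% of them. Over all 16727 genes tested, 1.03% were called higher and 0.682% lower (limma, Benjamini-Hochberg adjusted p under 0.05). A fit of edgeR to the recovered reads called 4 members higher and 0 lower, with 1.01% of all genes called higher and 0.664% lower. DESeq2 called 5 members higher and 0 lower, with 3.02% and 1.51% of all genes. At an unadjusted p under 0.05, limma gave 7 members higher and 1 lower, where 7.11% and 5.63% of all genes passed. The direction over the whole set was mixed. The fitted change was positive in 21 members, or 53.8%, and negative in 18, where 46.6% of all genes were positive and 53.4% negative, with a median log2 fold change of 0.13 against -0.04 for all genes tested. That median was -0.0050 without control 4, 0.040 without mutant 1 and 0.079 without control 2, and with library quality weights it was 0.033 against -0.019 for all genes. By library, the median member lay between 0.08 and 0.40 above the control mean on the log2 scale in mutants 1, 2, 3 and 5 and 0.06 below it in mutant 6, while the controls ranged from -0.12 to 0.19. The controls and mutants therefore overlapped in the level of the set as a whole although those 4 genes did not.

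**Figure D2:**
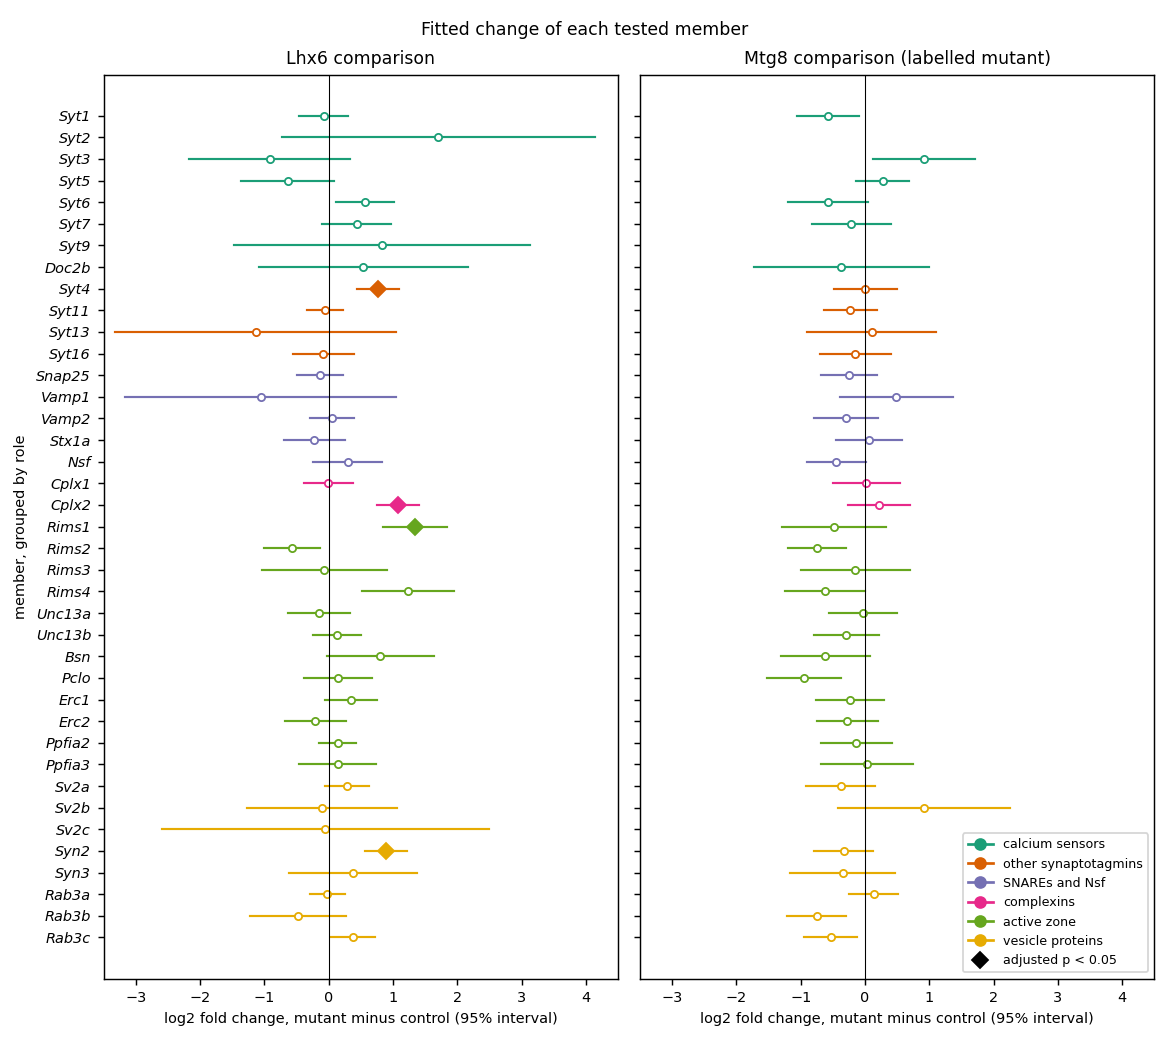
Fitted log2 fold change (mutant minus control) of each tested member with its 95% interval, grouped and coloured by role, in the *Lhx6* comparison (left, 39 members) and the *Mtg8* comparison (right, 36 members). Filled diamonds mark an adjusted p under 0.05 (limma): *Syt4*, *Cplx2*, *Rims1* and *Syn2* on the left and none on the right.

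The complexins diverged within the family. Complexins bind the assembled SNARE complex and both restrain and assist fusion. The normalised read counts of *Cplx2* (chr13:54371349-54383917, GRCm38.p6, plus strand) were 1099, 970.5, 1327 and 1172 in controls 1 to 4, and 2855, 2058, 2654, 2586 and 1955 in mutants 1, 2, 3, 5 and 6. Every mutant library lay above the highest control, and mutant 6 was the lowest of them. The log2 fold change was 1.08 ± 0.15 (SE, limma, adjusted p = 0.0021), and with each library left out in turn it stayed between 1.002 and 1.15. *Cplx1*, its closest relative, had counts of 846, 677, 848 and 718 in controls and 824, 728, 1071, 618 and 662 in mutants. The groups overlapped throughout, and the 95% interval of the log2 difference ran from -0.39 to 0.38.

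Among the active zone genes, *Rims1* rose and its relative *Rims2* had a negative fitted change. Rims proteins tether vesicles and calcium channels to the scaffold. The counts of *Rims1* (chr1:22286251-22805994, minus strand) were 203, 147, 222 and 141 in controls and 619.9, 468, 379, 494 and 321 in mutants 1, 2, 3, 5 and 6. Again all mutants lay above all controls with mutant 6 nearest to them (log2 fold change 1.34 ± 0.23, limma adjusted p = 0.0077). *Rims2* had 901, 606, 844 and 715 in controls against 516, 541, 488, 705 and 353 in mutants. Only mutant 5 lay inside the control range, and the log2 fold change of -0.57 ± 0.20 did not pass (limma adjusted p = 0.238). *Rims4*, a short family member without the tethering domains of the long forms, had 42.3, 31.9, 94.9 and 50.5 in controls and 167, 138, 114, 91.1 and 105 in mutants. Its log2 fold change of 1.24 ± 0.33 missed the threshold in limma (adjusted p = 0.0982) and passed it in DESeq2 (1.16, adjusted p = 0.0271), and leaving out control 3 gave 1.53 with a limma adjusted p of 0.0367. Of the other active zone members tested, *Bsn*, which encodes Bassoon, had the largest value, a log2 fold change of 0.80 with a 95% interval from -0.03 to 1.63. Its log2 difference was -0.56 within the undated libraries, where mutant 6 (152) lay below the lowest control (161). *Pclo*, *Erc1*, *Ppfia2*, *Ppfia3* and *Unc13b* had log2 fold changes between 0.13 and 0.34, and *Unc13a*, *Erc2* and *Rims3* between -0.21 and -0.07, all with overlapping libraries.

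Of the vesicle proteins, *Syn2* rose. Synapsin II ties vesicles into the reserve pool behind the active zone. *Syn2* (chr6:115134902-115282006, plus strand) had counts of 804, 705, 894 and 674 in controls and 1628, 1391, 1492, 1486 and 1133 in mutants. All mutants exceeded all controls, with a log2 fold change of 0.89 ± 0.15 (limma adjusted p = 0.0068). Its relative in the list, *Syn3*, had a log2 fold change of 0.38 with an interval from -0.63 to 1.38. Its mutant 1 count (22.3) lay far below those of the other mutants (87.2 to 128). *Rab3c* had a value of 0.37 (adjusted p = 0.352) and *Rab3b* one of -0.48 (adjusted p = 0.579, limma) that was -0.16 without mutant 1, its lowest library, whereas *Rab3a*, the most abundant member, had counts of 4229, 4389, 4212 and 4362 in controls and 3425, 4194, 5193, 4422 and 4109 in mutants. Its interval, from -0.29 to 0.25, was among the narrowest of the set.

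Of the synaptotagmins tested, *Syt4* alone was called higher in limma. All mutants lay above all controls for *Syt6* too, and the genes were not tested against each other. *Syt4* lacks calcium-dependent lipid binding in its first C2 domain and sits on dense-core and other post-Golgi vesicles. Its counts were 1308, 1578, 1551 and 1353 in controls and 1949, 2618, 2853, 2134 and 2917 in mutants, with no overlap, and here mutant 6 was the highest library rather than the lowest. The log2 fold change was 0.77 ± 0.15 (limma adjusted p = 0.0187). With each library left out in turn, this call was the least stable of the 4. It was lost without a mean-variance trend (adjusted p = 0.0802) and without control 1, control 4 or mutant 2, where the log2 fold change was 0.72, 0.74 and 0.75 and the adjusted p reached at most 0.0913. *Syt11*, which shares its C2-domain substitution, had a log2 fold change of -0.06 with an interval from -0.33 to 0.22.

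**Figure D3:**
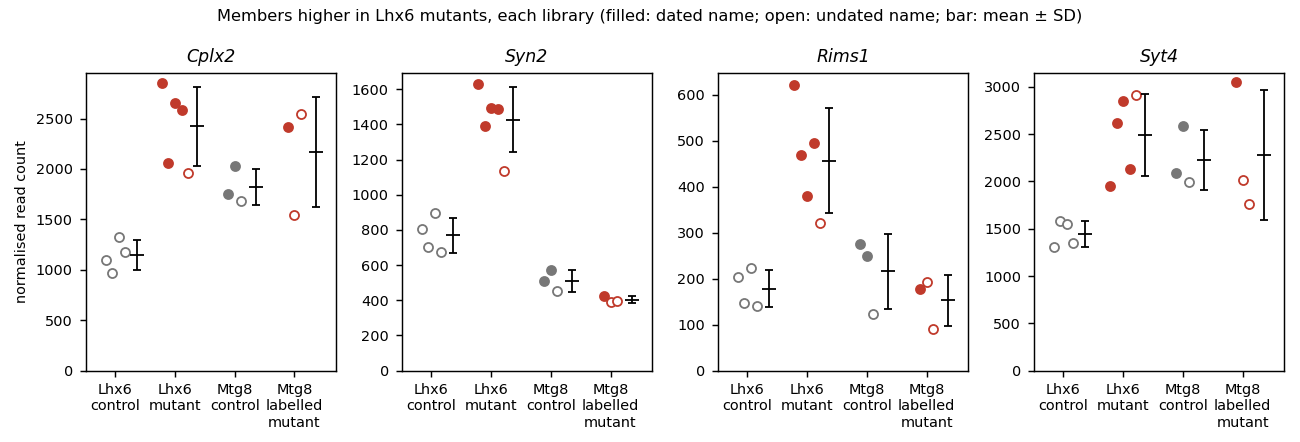
Normalised read count of *Cplx2*, *Syn2*, *Rims1* and *Syt4* in each library on axes that start at 0, with the mean and SD of each group as a bar. In the *Lhx6* comparison all 5 mutants lay above all 4 controls for each gene. In the *Mtg8* comparison the groups overlapped for *Cplx2*, *Rims1* and *Syt4*, and the 3 libraries labelled *Mtg8* mutant lay below the 3 controls for *Syn2*.

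Of the mutant libraries behind these calls, 4 of 5 are dated, and no control is. Within the undated libraries alone, mutant 6 against the 4 controls, the log2 differences were 0.78 for *Cplx2*, 0.87 for *Rims1*, 0.57 for *Syn2* and 1.02 for *Syt4*. The sign of these differences was already fixed, because every mutant lay above every control for these genes, so only their sizes are given. With 1 mutant behind the contrast, the limma fit with name style as a covariate called 0 members higher, and 0.0897% of all genes, and 0 lower, where 0.251% of all genes were (adjusted p = 0.405, 0.762, 0.741 and 0.168). Against only controls 1 and 2, whose names share their first numbers with that of mutant 6, the differences were 0.92, 0.89, 0.59 and 1.02. What the name style contributed beyond this was not tested. With the replicate number as a block, limma called 0 members in either direction. Only numbers 1, 2 and 3 occur in both *Lhx6* groups, so control 4 and mutants 5 and 6 do not inform that contrast. Of all *Lhx6* genes 0.293% were called higher and 0.221% lower with the block, and of all *Mtg8* genes 0.545% and 0.0744%.

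For 2 of the 4 genes the sequence upstream of the start could be read from RefSeq (GRCm38.p6) at a start on or close to the first base of the gene model in the deposited table, and both are shown because these genes rose together. The 250 bases that end just before the start are given 5′ to 3′ on the strand of the gene, with capitals for the GC box GGGCGG. They cover chr6:115134652-115134901 (plus strand) for *Syn2* and chr1:22806159-22806408 (minus strand) for *Rims1*, whose RefSeq start lies 164 bases upstream of the gene model.
Syn2: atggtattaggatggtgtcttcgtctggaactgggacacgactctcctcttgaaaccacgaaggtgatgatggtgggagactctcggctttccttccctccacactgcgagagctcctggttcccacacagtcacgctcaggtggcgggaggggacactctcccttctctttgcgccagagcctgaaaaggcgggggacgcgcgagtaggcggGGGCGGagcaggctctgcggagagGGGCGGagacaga
Rims1: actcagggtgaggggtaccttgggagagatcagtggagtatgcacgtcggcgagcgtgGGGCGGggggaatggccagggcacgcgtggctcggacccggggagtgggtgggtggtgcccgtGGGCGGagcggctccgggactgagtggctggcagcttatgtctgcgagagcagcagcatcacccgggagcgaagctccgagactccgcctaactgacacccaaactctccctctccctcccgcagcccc
Each held 2 GC boxes, counted on both strands, and GC contents of 61.2% and 68.0%. A GC box was found in 30 of 41 RefSeq windows of the members, which covered 32 member genes and ran from 250 bases before to 50 after a start, or 73.2%, and in 35.7% of all 32851 such windows. The members were also richer in GC, with a median of 62.7% against 52.7% over all windows. The homeodomain core TAATTA, the E-box CACGTG, the left part of the RE1 element TTCAGCACC and the TATA box core TATAAA were absent from both printed windows on either strand. The shares holding them were 2.44%, 14.6%, 4.88% and 7.32% of member windows and 5.29%, 7.15%, 0.371% and 13.6% of all windows. The 2 member windows with the RE1 part belonged to *Unc13a* and *Ppfia3*. The GC box was added to the search after the sequences had been read.

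The core fusion machinery, which every release site needs, had 0 of 5 members called in *Lhx6* mutants. Over all genes 1.03% were called higher and 0.682% lower (limma), so 0 of 5 is near that share. The data limited these members unequally. *Snap25* had counts of 3553, 3518, 3226 and 3286 in controls and 2251, 3015, 4056, 3766 and 2723 in mutants, and its interval ran from -0.49 to 0.22 on the log2 scale. *Vamp2* had an interval from -0.29 to 0.39, and the syntaxin *Stx1a* one from -0.70 to 0.26. *Nsf*, the ATPase that takes used SNARE complexes apart, had a log2 fold change of 0.29 with an interval from -0.24 to 0.82. Its mutant 3 count was 2243, with the other mutants from 759 to 1329. *Vamp1*, the SNARE that replaces *Vamp2* in some mature neurons, was near the filter, with 23.02 ± 13.6 (n = 4) in controls and 15.6 ± 14.2 (n = 5) in mutants. Its log2 fold change was -1.06 with an interval from -3.16 to 1.04, and it was -0.24 without mutant 1. Of the 35 members not called, 19 had a 95% interval within a 2-fold change in either direction, and the data do not limit the others that far.

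None of the 8 calcium sensors tested passed. Over all genes 1.03% were called higher and 0.682% lower (limma), so this count is near that share. *Syt1* had counts of 4072, 3292, 4264 and 3615 in controls and 4103, 3489, 4759, 3546 and 2453 in mutants. Only mutant 6 lay outside the control range on the low side, and the interval ran from -0.46 to 0.30. *Syt6* did not overlap between the groups (202, 204, 189.8 and 127 in controls; 256, 237, 335, 272 and 224 in mutants), with a log2 fold change of 0.56 ± 0.21 and a limma adjusted p of 0.274. Counting *Syt6* and the 4 called genes, 5 of 39 members had all mutants above all controls, or 12.8%, and 0 had all mutants below, where 3.19% and 3.03% of all genes did so. *Syt5* had a value of -0.64, was lowest in mutant 1 and had -0.30 without it, and *Syt2*, the sensor of mature fast-spiking terminals, had counts of at most 7.37 in controls and from 0 to 53.2 in mutants (log2 fold change 1.70, interval from -0.73 to 4.14). *Syt2* and *Sv2c* passed the filter only through mutants, with control means of 3.24 and 5.76, and count among the members tested. *Doc2a*, a soluble calcium sensor of spontaneous release, was below the filter and not tested. It had 10.1 to 17.3 normalised counts in controls and 0 to 8.67 in mutants, so that all mutants lay below all controls, and it is not in the count above because the low mutant values took its mean under the filter.

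Ratios between related genes within a library do not depend on the scaling of that library. They were computed after the values above had been seen and are given without a test. Per kb of exon, the ratio of *Rims1* to *Rims2* was 0.318, 0.342, 0.371 and 0.279 in *Lhx6* controls and 1.70, 1.22, 1.10, 0.989 and 1.28 in mutants 1, 2, 3, 5 and 6. On this scale *Rims2* was thus ahead of *Rims1* in each control, and in mutants the 2 were near parity or *Rims1* was ahead. The ratio of *Cplx2* to *Cplx1* was 0.577 to 0.726 in controls and 1.10 to 1.86 in mutants. The complexin that was ahead differed between the groups on this scale only. By the counts given above, *Cplx2* was ahead of *Cplx1* in every *Lhx6* control and mutant. The exon length is that of the gene model, and the lengths of the transcripts present were not measured. *Syt4* to *Syt11* moved from 0.278 to 0.434 in controls to 0.524 to 0.692 in mutants. The fourth pair, *Syn2* to *Syn3*, overlapped between the groups, with 18.72, 20.15, 22.59 and 28.09 in controls and 127.71, 20.196, 20.43, 29.77 and 19.98 in mutants 1, 2, 3, 5 and 6. Only mutant 1 lay far from the controls, and its *Syn3* count was the lowest of the mutants. In the *Mtg8* table the groups overlapped for all 4 ratios, with 0.186 to 0.354 in controls and 0.177 to 0.521 in labelled mutants for *Rims1* to *Rims2*.

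**Figure D4:**
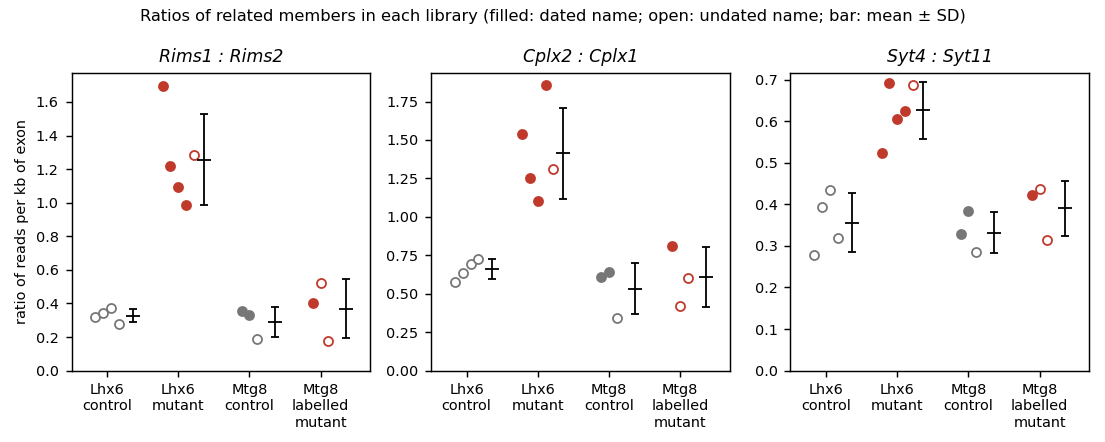
Ratio of normalised reads per kb of exon for the 3 of 4 pairs of related members that separated in the *Lhx6* comparison, with 1 point per library, the mean and SD of each group as a bar and axes that start at 0. *Rims1* to *Rims2* averaged 0.328 in *Lhx6* controls and 1.26 in *Lhx6* mutants without overlap, and 0.290 and 0.368 in the *Mtg8* groups, which overlapped.

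A further list covered other genes of vesicle release. Of 52 further genes of the pathway, 45 were tested in the *Lhx6* table, 0 were called higher and 1 lower (background 1.03% and 0.682%), with a median log2 fold change of -0.07. The gene that fell was *Rph3a*, which encodes rabphilin, a Rab3 effector on the vesicle, from 955 ± 187 (n = 4) to 232 ± 59.8 (n = 5), a log2 fold change of -2.06 ± 0.23 (limma adjusted p = 2.9e-04). The highest of the 52 in controls, *Lin7c* and *Snap47*, had log2 fold changes of 0.01 and -0.15. In a list of 20 genes of neuronal maturation, 2 of 18 tested rose, *Elavl4* (0.43) and *Celf4* (0.79), both RNA-binding proteins of neurons, and 0 fell, with a median of 0.19. In a list of 15 genes of young migrating neurons, 3 of 15 rose, *Dlx5* (1.02), *Dlx6* (1.66) and *Sox4* (1.02), and 0 fell, with a median of 0.10. Markers of maturing and of young neurons thus each had members that rose. Of 14 progenitor and cycling genes 0 were called, with a median of 0.19 and summed levels of 10379 to 12591 in controls and 10116 to 19909 in mutants.

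Markers of other cells were also read beside the release genes in the *Lhx6* table. The 11 pyramidal neuron markers, neurons that express release genes strongly, summed to 15416 to 21329 in controls and 12371 to 16941 in mutants, with 0 called. Of 7 microglial markers 5 passed the filter, and of 7 endothelial and pericyte markers 4, with 0 called. The first summed to at most 412 and the second to at most 539 in any library. Markers of glia and their precursors summed to 4791 to 6372 and 4455 to 9248, with 0 called. The list for interneurons of the MGE itself had 4 of 10 markers called lower and 0 higher, with 6 of 10 negative and a median log2 fold change of -0.47. Its sums were 38360 to 47697 in controls and 16076 to 31068 in mutants, without overlap. The list for interneurons of the caudal ganglionic eminence went both ways. Of 7 tested, *Adarb2* was called higher (31.5 ± 11.4 in controls and 637 ± 190 in mutants) and *Htr3a* lower (222 ± 22.1 and 78.8 ± 39.3), and 4 were negative, with a median of -0.35. Its sums were 3053 to 3646 in controls and 4097 to 4507 in mutants, without overlap. Erythroid markers summed to 5966 to 58615 and 1798 to 20401. Their part in the release genes was not tested.

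In the *Mtg8* comparison no member was called. Neither was any of the other genes among the 16132 tested (0.0% in limma), and edgeR and DESeq2 also called 0 members. Of all genes, edgeR called 0.0062% higher and 0.0% lower and DESeq2 0.129% and 0.0616%. The values leaned downwards. The fitted change was negative in 25 of the 36 members that passed the filter and positive in 11, where 51.5% of all genes were negative and 48.5% positive, and the median log2 fold change was -0.24 against -0.01 for all genes, or -0.13 without labelled mutant 3. At an unadjusted p under 0.05, 5 members were lower and 1 higher, or 13.9% and 2.78%, where 2.44% and 3.06% of all genes were. In 7 members all 3 libraries labelled *Mtg8* mutant lay below all 3 controls, or 19.4%, against 5.52% of all genes, and in 3 they lay above, or 8.33%, against 4.68%. With 3 libraries against 3, the exact permutation test of a single gene cannot go below p = 0.1, the value of each of these 10. By library the median member lay 0.15, 0.46 and 0.14 below the control mean in labelled mutants 2, 3 and 4, and the controls ranged from -0.07 to 0.04. Labelled mutant 3 was thus the lowest, and none of the 3 reached the controls. Each gene was centred on the mean of these same controls, which by construction narrows their range and not that of the labelled mutants. The gap between the groups is therefore a description only.

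Of the 7, 3 were genes of the active zone and 3 proteins of the vesicle. *Pclo* had normalised read counts of 836, 904 and 561 in controls 1, 2 and 4 and 523, 356 and 314 in labelled mutants 2, 3 and 4, a log2 fold change of -0.95 with an interval from -1.52 to -0.38 (limma adjusted p = 0.783). Control 4 was close to labelled mutant 2, and the remaining libraries were further apart. *Rims2* had 1099.9, 1062 and 928 against 619.7, 520.2 and 712 (-0.75, interval from -1.20 to -0.30). *Rab3b* had 547, 654 and 654 against 383, 326 and 391 (-0.75, interval from -1.21 to -0.29). *Rab3b* was tight within each group, with SDs of 62.1 and 35.4 around means of 618 and 367. *Rab3c* had 5322, 5615 and 6073 against 4877, 3286 and 3739.6 (-0.53). *Rab3a* did not share this, with 4577, 4584 and 4721 against 4195, 5675 and 5486 (0.13, interval from -0.25 to 0.52). The calcium sensor *Syt1* had 6067, 5752 and 6252 against 4248, 2877 and 5408 (-0.57, interval from -1.05 to -0.10, and -0.33 without labelled mutant 3). For *Syt1* the labelled mutants were spread widely and number 4 was close to the controls. *Rims4* (-0.62) and *Syn2* (-0.33) completed the group. Of the 12 active zone members tested, 11 had negative values, with a median of -0.28, and *Ppfia3* alone was positive at 0.03. *Ppfia2* turned positive without labelled mutant 3 (0.099), with the replicate block (0.093) and with name style as a covariate (0.044).

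The 7 genes were chosen because no library labelled mutant reached a control, so their differences within a name style could only be negative, and the sizes are given as a description. *Rab3b* had -0.64 in the dated libraries (2 controls and 1 labelled mutant) and -0.87 in the undated ones (1 control and 2 labelled mutants), *Pclo* -0.73 and -0.74, *Rims2* -0.80 and -0.61, *Rims4* -0.58 and -0.57, *Syt1* -0.48 and -0.66, *Rab3c* -0.16 and -0.79, and *Syn2* -0.34 and -0.20. Over the 36 members the medians were -0.13 and -0.29.

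**Figure D5:**
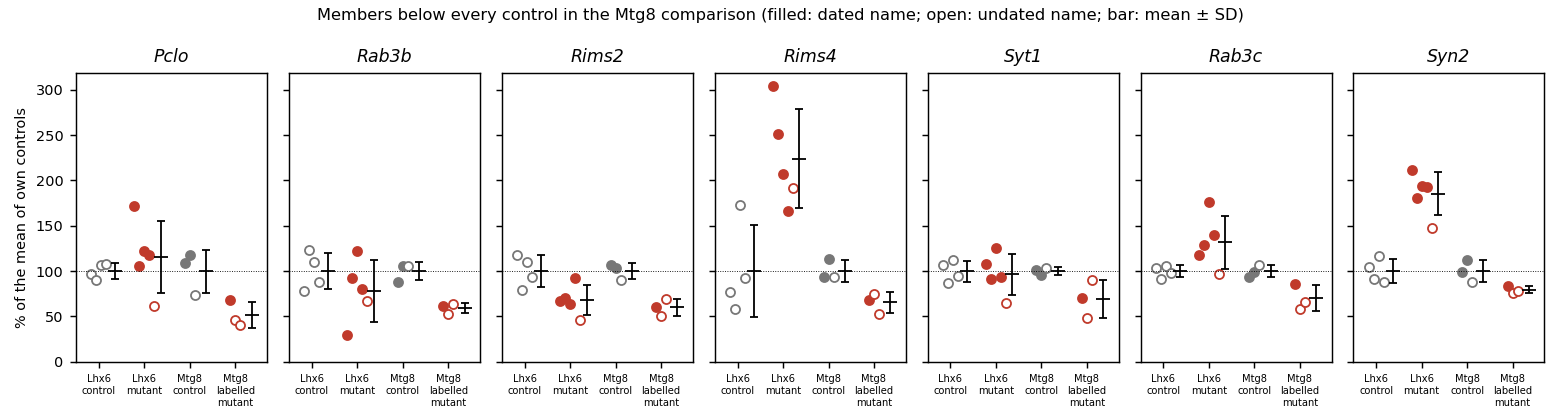
Level of the 7 members that were lower in every library labelled *Mtg8* mutant, as a percentage of the mean of the controls of the same table, with 1 point per library and the group mean and SD as a bar. *Pclo*, *Rab3b* and *Rims2* had the lowest means in the *Mtg8* comparison, and, of the 7, *Syn2* was the gene whose 5 *Lhx6* mutants lay above all *Lhx6* controls.

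The 3 members above all controls were 2 calcium sensors and a SNARE at low to moderate levels. *Syt3* had 39.1, 37.3 and 29.3 in controls and 82.7, 46.0 and 79.5 in labelled mutants (log2 fold change 0.92, interval from 0.13 to 1.71). *Syt5* had 811, 895 and 807 against 935, 1076 and 1027 (0.27), and *Vamp1* had 23.5, 23.5 and 17.6 against 32.9, 25.7 and 32.9 (0.49). The genes called in *Lhx6* mutants did not share a direction here. *Cplx2* had a log2 fold change of 0.22 (interval from -0.26 to 0.70), which lay between 0.086 without labelled mutant 4 and 0.45 without labelled mutant 3, *Syt4* one of 0.00 (from -0.49 to 0.50), *Rims1* one of -0.48 (from -1.29 to 0.33), which lay between -0.85 without control 4 and -0.14 without labelled mutant 4, and *Syn2* one of -0.33 (from -0.79 to 0.13). *Rims2* was negative in both comparisons, at -0.57 and -0.75, and *Rims4* was 1.24 in one and -0.62 in the other. The controls of the comparisons are different embryos, and the differences between the comparisons were not tested. Of the 36 members, 21 had an interval within a 2-fold change in either direction.

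Cell markers were read beside these values too. In the *Mtg8* table none of the lists had a called gene. The further release genes had a median log2 fold change of -0.19 (31 of 45 negative), neuronal maturation genes -0.27 (13 of 18 negative) and genes of young migrating neurons -0.20 (13 of 15 negative). Progenitor and cycling genes had a median of 0.48, with summed levels of 9253 to 9377 in controls and 10815 to 12493 in labelled mutants. Pyramidal markers had a median of 0.70 and were positive in 11 of 11, summing to 5820 to 14304 and 9150 to 23071, and markers of glia and their precursors had 0.58, positive in 7 of 7. Of 10 MGE interneuron markers 9 were negative, with a median of -0.30, and they summed to 60201 to 60421 in controls and 39633 to 44704 in labelled mutants. Markers of the caudal ganglionic eminence were positive in 6 of 7, with a median of 0.36 and overlapping sums of 2934 to 4038 and 2935 to 5811. The summed release genes themselves were 53851 to 55914 in controls and 40925 to 50464 in labelled mutants, against 34637 to 37934 and 34940 to 49768 in the *Lhx6* table. Microglial markers summed to at most 928 and endothelial and pericyte markers to at most 689.6 in any library, and erythroid markers to 10845 to 27162 and 15493 to 31665. What part these markers had in the release genes was not tested.

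Reads of a gene and of an overlapping gene on the opposite strand cannot be told apart, since strand use in counting is not given in the sources used here. Among the called members this touches *Syn2*, which shares 90 of its 7031 exon bases with *Timp4*, and *Syt4*, which shares 566 of 3892 with *Gm26658*. *Timp4* averaged 46.0 in *Lhx6* controls and 89.8 in mutants, and *Gm26658* 2.05 and 6.94, against 769 and 1426 for *Syn2* and 1448 and 2494 for *Syt4*.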

How the data were processed

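Sorted cells of 15 embryos were profiled by RNA sequencing with single-end reads. According to the study's methods, the authors made cDNA with a low-input kit and prepared Nextera XT libraries. They used fastp 0.20.1 for trimming, STAR 2.7b for alignment to the genome and featureCounts 1.6.4 for counting. Sex-linked genes were removed with a GRCm38.p6 gene annotation. The values used are normalised counts that the authors deposited per library, read counts divided by a DESeq2 size factor (unit: signal, not coverage). Each table was scaled on its own. The deposited tables also hold the authors' own comparison, with log2 fold changes and their standard errors, a test statistic (a score) and p-values, and none of these columns was used.

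Dividing by the smallest step gave whole reads for 100.0% of values within 0.01. Genes with a mean of at least 10 were tested on log2(value + 1), 16727 for *Lhx6* and 16132 for *Mtg8*, with limma 3.58.1 (moderated with a trend, two-sided, Benjamini-Hochberg adjusted p under 0.05), each table alone. Fold changes are on that scale and understate low genes. edgeR 4.0.16 (quasi-likelihood) and DESeq2 1.42.0 were run on the recovered reads in R 4.3.3. All p-values measure the spread between embryos, which were treated as independent. The study describes the mutants as littermates of controls, but litters are not labelled and did not enter the main fit. The names of *Lhx6* mutants 2 and 5 share a date and a code, and whether such a code marks a litter is not given. Scripts were tested on simulated data. The members and gene lists were chosen with earlier results of these data known. Members were named where they were called, did not overlap between groups, led their role in level or change, or had the 3 highest or lowest control levels, and others are given by range. *Bsn*, *Snap25*, *Stx1a*, *Nsf*, *Syn3* and *Ppfia3* with the *Unc13* genes were added to complete the families after values were seen. Alternatives were the pseudocount, the filter, the scaling, library weights, no trend, the other tools, a stricter threshold, the replicate number, the name style and each library left out.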

Additional observations from a re-analysis of the deposited data

Results flagged for a closer look

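In 8 of 78 groups of 4 or 5 libraries, 1 library stood apart from the rest of its group, as judged by its gap to the nearest library divided by the range of the group (Dixon's ratio). Chance alone gives such a gap in about 1 in 20 groups. *Syt3* in *Lhx6* control 1 was at 28.8 normalised counts, with the other controls from 57.1 to 59.9 (ratio 0.935), and in *Lhx6* mutant 5 at 4.84, with the others from 29.8 to 45.8 (0.799). *Syt6* in control 4 was at 127, below 189.8 to 204 in the others (0.85). *Sv2a* in control 3 was at 963, above 700.1 to 738 (0.835). *Syt9* was at 0 in mutant 6 and from 24.2 to 50.9 in the others (0.817). *Erc1* was at 740.4 in mutant 6, below 1098 to 1213 (0.798). In mutant 1, *Unc13b* was at 622, above 439 to 470.2 (0.802), and *Syn3* at 22.3, below 87.2 to 128 (0.779). Of the 8, none was a gene called in the *Lhx6* comparison.

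For *Syn2* the libraries separated in opposite directions in the comparisons, although it was not called in that of *Mtg8*. All 5 *Lhx6* mutants were above all their controls (log2 fold change 0.89) and all 3 libraries labelled *Mtg8* mutant were below theirs (-0.33). This difference was not tested.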

How the results depend on the processing

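The 4 members higher and 0 lower in *Lhx6* mutants stayed within 3 to 5 and at 0 when each library was left out in turn, and the median log2 fold change of the members within -0.0050 to 0.18. In the *Mtg8* comparison the counts stayed at 0 and the median within -0.35 to -0.13. The name style as a covariate gave 0 members higher and a median of -0.064 in the *Lhx6* comparison, a fit in which only 1 mutant informs the contrast. The cause was not tested. A replicate block, to which control 4 and mutants 5 and 6 add nothing, gave 0 members higher too. Of all *Lhx6* genes 0.293% were called higher, against 1.03% without the block. The *Lhx6* log2 fold changes with the block were 1.15 for *Cplx2*, 0.91 for *Syn2*, 1.35 for *Rims1* and 0.73 for *Syt4* (limma adjusted p from 0.0897 to 0.337). The *Lhx6* libraries of a pair share only the number in their labels, and correlations of same-numbered deviations ran from -0.15 to 0.07 in 3 pairs. They were 0.14 and 0.16 in the 2 pairs of the *Mtg8* table, above the other pairs (-0.18 to 0.08). There control 2 and labelled mutant 2 also share a date and a code in their names, as does control 1, so whether the numbers pair those libraries was not settled, and the block called 0 members, 0.545% of all genes higher and 0.0744% lower.

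Some members that were not called changed sign. In the *Lhx6* comparison the log2 fold change of *Sv2c* was 0.34 with a pseudocount of 10, 1.41 with edgeR, 1.45 with DESeq2 and 0.998 with the replicate block. That of *Sv2b* was 0.11 with edgeR, 0.12 with DESeq2, 0.27 with the block and 0.50 with name style. *Vamp2* had -0.0078 with equal totals, -0.0087 with library weights and -0.15 with name style, and *Rab3a* had 0.0056 with weights. *Cplx1* had 0.0091 with edgeR, 0.015 with DESeq2 and 0.13 with the block, where *Syt1* had 0.084. With name style *Syt11* had 0.046, *Vamp1* 0.35 (from -1.06), *Pclo* -0.70, *Ppfia2* -0.12 and *Rab3c* -0.049 (from 0.37). Within the undated libraries alone *Bsn* had -0.56, *Erc1* -0.18 and *Rims3* 0.0049, each opposite in sign to its fitted change. Without 1 library, the ranges that crossed 0 were -0.18 to 0.056 for *Syt1*, -0.13 to 0.0057 for *Syt11*, -0.13 to 0.072 for *Cplx1*, -0.039 to 0.15 for *Vamp2*, -0.41 to 0.33 for *Sv2b*, -0.22 to 0.60 for *Sv2c*, -0.024 to 0.35 for *Pclo* and -0.096 to 0.054 for *Rab3a*. In the *Mtg8* comparison *Syt4* had -0.0064 and *Syt13* -0.19 with weights, *Syt13* -0.0083 and *Cplx1* -0.0075 with DESeq2, *Cplx1* -0.15 and *Ppfia2* 0.093 with the block, and -0.17 and 0.044 with name style. Without 1 library the ranges were -0.23 to 0.17 for *Syt4*, -0.38 to 0.37 for *Syt13*, -0.13 to 0.26 for *Cplx1* and -0.42 to 0.10 for *Ppfia2*.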
